A study of Mus musculus with 4 samples.

Results

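The 40 genes described here encode neuropeptides, the granins that fill the same secretory granules, and the enzymes that cut and finish prohormones. They were chosen by gene symbol: every probe whose gene name on the array is a member symbol was taken, which gave 56 probes for 40 genes out of 56605 probes and 27246 named genes. The list holds 24 peptides of hypothalamus, brainstem and interneurons, 5 natriuretic and calcitonin family peptides, 6 granins, and 5 processing proteins. RNA came from brainstem/cerebellum and from spinal cord of transgenic mice, called MSA Tg by the submitters (in multiple system atrophy, MSA, alpha-synuclein builds up inside oligodendrocytes and neurons are lost), and of wild types. All mice were 24 weeks old and of a mixed background of C57BL/6, 129 and C3H. Each of the 4 groups (wild-type and transgenic brainstem/cerebellum, wild-type and transgenic spinal cord) is 1 Agilent array in 1 colour. The sample titles carry the letters PLP, which the labels do not spell out. The construct, its promoter and the number of animals behind a sample are not given in the sources used here.

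A neuropeptide is made as a longer precursor that is packed into dense-core granules. There the prohormone convertases Pcsk1 and Pcsk2 cut it at pairs of basic residues, carboxypeptidase E (Cpe) trims the exposed ends, and Pam adds the amide group that many peptides need for activity. Granins such as chromogranin A help granules to form and are themselves cut into peptides. In brainstem and spinal cord, peptides of this kind act in pain pathways, autonomic control, breathing and feeding, mostly beside a fast transmitter. In bulk tissue, fewer cells of a type and less RNA per cell cannot be told apart.

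With 1 array per group, no difference has a replicate check and no p-value is given. Levels are log2 of the processed signal over the 75th percentile of the array, so a level of 0 is that percentile. Differences are transgenic minus wild type on the log2 scale unless stated otherwise, and a gene was counted as higher or lower from 2-fold (a difference of 1). Repeated spots of 1 probe give a technical error only. For a difference of 2 such spots the SD was 0.09 to 0.12 for levels above -2, 0.19 between -4 and -2, and 0.29 between -6 and -4, where it rests on only 3 or 4 values per range. The number of arrays limits the precision. The wild-type spinal cord array was on another slide than the other 3, so in the genotype comparison of spinal cord, and in the wild-type tissue comparison, slide and group cannot be told apart. From 59.2% to 64.0% of spots were well above background on each array, and no spot was saturated. The tissue labels were checked on marker genes: all 9 spinal Hox genes were above background on both spinal cord arrays, against 3 and 5 of them on the brainstem/cerebellum arrays, and all 10 cerebellar markers were at least 2-fold lower in spinal cord in both genotypes. Of the 40 members, 39 were well above background on all 4 arrays. Avp, the antidiuretic hormone vasopressin, was above background on none.

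Sequences are shown for the probes and promoters that the results below turn on. Calca is spliced into either calcitonin or the sensory and motor neuron peptide CGRP alpha. The array carries 1 probe annotated to a transcript of each form, and the 2 probes gave opposite results. The first 30 of 60 bases are given for these probes, for the probe of Calcb (the second CGRP gene) and for that of Nmu, in lower case and with nothing marked. The longest run of bases that any 2 of the full Calca and Calcb probes share was 6.
Calca transcript variant 1 (calcitonin form): ggcagtcatctggcttcctagtagagcttc
Calca transcript variant 2 (CGRP alpha form): tattgtgcatcgtgttgtatgtgactctgt
Calcb: ccgttgttacttgagaggaatgaaaccaag
Nmu: tgtgcatccgttgctgcagctcgtccctca

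In mm9, the build of the array's probe coordinates, the variant 1 probe lies on chromosome 7 at 121776832 to 121776891 and the variant 2 probe at 121775204 to 121775263, both on the minus strand. The Calcb probe lies at 121866534 to 121866593 on the plus strand of the same chromosome, and the Nmu probe on chromosome 5 at 76769788 to 76769847 on the minus strand. The exon of each probe was not analysed here, so whether a Calca probe reads 1 form alone was not checked.

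Promoters are shown because 5 of 6 granins and Pcsk1 had differences below 0 in spinal cord, of which Chga and Pcsk1 passed 2-fold, and the cAMP response element is a textbook element of such genes. The 250 bases before the RefSeq start (GRCm38.p6) were searched for this element, TGACGTCA, and for the AP-1 element, TGANTCA. Both read the same on either strand, and they cannot overlap each other. A window was on hand for 33 of the 40 genes, with 36 windows in all. Penk, Pnoc, Crh, Grp, Calcb, Cpe and the granin gene Vgf had none and were not searched. Members are counted by gene below, and the share over all is counted by window. TGACGTCA stood in the window of 6 of these 33, namely Sst, Cartpt, Ucn, Chgb, Scg2 and Pcsk1, and in 1.55% of all 32851 windows. The window of Chga does not hold it. TGANTCA stood in 5 of 33, namely Nts, Nmu, Nms, Avp and Pcsk1n, and in 6.75% of all windows. A match is a description of these letters, not a site in use. Capitals mark the element in the stretches below, which read 5′ to 3′ along the gene.
Scg2, chr1:79440062-79440119, - strand: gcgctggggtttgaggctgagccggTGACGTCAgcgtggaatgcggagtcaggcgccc
Chgb, chr2:132781545-132781602, + strand: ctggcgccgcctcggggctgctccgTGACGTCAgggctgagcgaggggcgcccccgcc
Pcsk1, chr13:75089754-75089811, + strand: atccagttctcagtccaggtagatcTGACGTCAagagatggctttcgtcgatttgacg
Sst, chr16:23890860-23890917, - strand: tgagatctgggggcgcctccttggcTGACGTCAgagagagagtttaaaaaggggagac
Cartpt, chr13:99900763-99900820, - strand: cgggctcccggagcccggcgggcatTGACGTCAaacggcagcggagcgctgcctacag
Ucn, chr5:31138907-31138964, - strand: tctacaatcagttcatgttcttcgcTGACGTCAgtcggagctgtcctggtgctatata
Nmu, chr5:76363917-76363973, - strand: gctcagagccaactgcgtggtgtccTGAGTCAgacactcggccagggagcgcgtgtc

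The first comparison asks how these genes differ between transgenic and wild-type mice in each tissue. Nmu was far higher in both tissues of the transgenic mice, Trh was higher in brainstem/cerebellum, and Adm and Nppb were higher in spinal cord. Calcb was lower in both tissues. Cck, the CGRP form of Calca, Chga and Pcsk1 were lower in spinal cord. In brainstem/cerebellum 2 of 39 measured members were at least 2-fold higher (5.13%, against 2.64% of all 16972 genes measured) and 1 was lower (2.56%, against 0.312%). In spinal cord 3 of 39 were higher (7.69%, against 8.46% of 17265 genes) and 5 were lower (12.8%, against 6.42%). The share of higher members in spinal cord was thus near that of all genes. The median difference of the members was -0.17 in brainstem/cerebellum and -0.30 in spinal cord, beside -0.07 and -0.05 over all genes. Below 0 lay 28 of 39 members in each tissue. With both medians over all genes below 0, most measured genes lay below 0 too, and their share was not counted.

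The spinal cord counts depend on the scaling. Scaled on 7 spike-in control probes, the median of all genes moved to -0.51, the median of the members to -0.76, and 2 members were higher and 11 lower, while 19.6% of all calls were higher in place of 56.9%. Spinal cord differences are thus relative to the percentile used. In brainstem/cerebellum the same scaling put the median of all genes at 0.02.

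**Figure D1:**
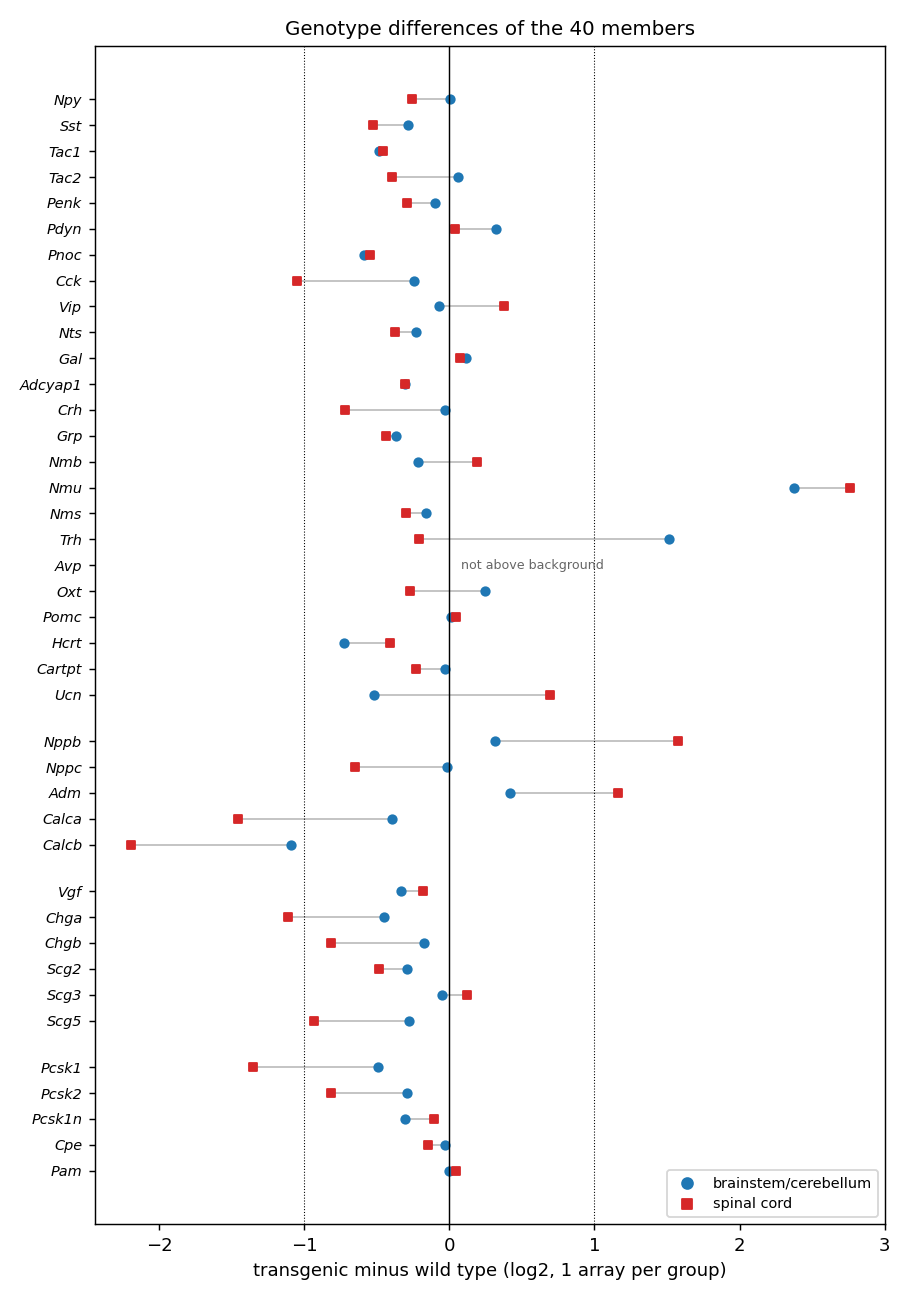
Difference between transgenic and wild type (log2, x axis) for each of the 40 members (y axis, in 4 groups by role), with circles for brainstem/cerebellum and squares for spinal cord. Dotted lines mark 2-fold, and Calca is shown by its CGRP probe. Nmu lies furthest right in both tissues (2.37 and 2.76), Calcb furthest left (-1.09 and -2.19), and most other members lie left of 0.

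Nmu encodes neuromedin U, a peptide that acts on smooth muscle, feeding, pain and immune cells. Its level was 2.56 on the wild-type and 4.93 on the transgenic brainstem/cerebellum array. In spinal cord it was 4.45 in wild type and 7.21 in transgenic mice. Both transgenic arrays were above both wild-type arrays. The differences were 2.37 (5.18-fold) and 2.76 (6.77-fold), and over 6 other ways of scaling, background correction and probe summary they ranged from 2.21 to 2.5 and from 2.30 to 2.79. Nmu has 1 probe, with 1 spot per array. Its relative Nms, which encodes neuromedin S, differed by -0.16 and -0.30. The shared receptor gene Nmur2 was above background on the transgenic but not on the wild-type brainstem/cerebellum array. It was dim there, at -4.95 in transgenic mice, with a bound of only 0.28 (1.22-fold). Its levels in spinal cord were -2.29 in wild type and -2.39 in transgenic mice.

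Trh encodes thyrotropin-releasing hormone, which also occurs in brainstem neurons that project to the cord. Its level was -0.20 in wild-type and 1.31 in transgenic brainstem/cerebellum, a difference of 1.51 (2.85-fold). In spinal cord it was -0.55 and -0.76, a difference of -0.21. The transgenic brainstem/cerebellum array alone stood above the 75th percentile. Across the 6 alternatives the brainstem/cerebellum difference was 1.33 to 1.60. Its receptor gene Trhr differed by -0.67 and -0.91.

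Adm encodes adrenomedullin, a vasodilator peptide made by vessels and glia. Its level was -1.76 and -1.34 in wild-type and transgenic brainstem/cerebellum and -1.16 and 0.01 in spinal cord. The transgenic array was the higher one in each tissue, by 0.42 and by 1.17 (2.24-fold). Nppb, the gene of B-type natriuretic peptide, was dim, with levels of -4.45 and -4.13 in brainstem/cerebellum and -4.99 and -3.41 in spinal cord. The spinal cord difference was 1.58 (2.99-fold), and a second Nppb probe gave at least 3.15-fold in the same direction. In brainstem/cerebellum the 2 probes disagreed, with 0.32 at the brighter one and a bound of -1.06 at the other. Adm was short of 2-fold in spinal cord with spike-in scaling (0.71) and with normexp background correction (0.95), and Nppb with normexp (0.90). Nppc, the C-type peptide, differed by -0.02 and -0.65.

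Markers of other cells moved beside these higher genes. The summed level of 9 microglia and macrophage markers, all above background on every array, was 46.5 and 87.6 in wild-type and transgenic brainstem/cerebellum and 77.2 and 292.2 in spinal cord (in units of the 75th percentile, over markers above background). That of 5 reactive astrocyte markers was 13.6 and 54.0 in brainstem/cerebellum and 40.9 and 172.6 in spinal cord. In spinal cord 7 of the 9 microglia and macrophage markers had differences above 0, up to 6.12 (Ms4a7). The other 2, Itgam (-0.28) and P2ry12 (-0.235), were below 0. In brainstem/cerebellum all 9 were above 0, from 0.12 (Itgam) to 4.42 (Cd74). The part of the markers of either cell type in the results for Nmu, Adm and Nppb was not tested.

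**Figure D2:**
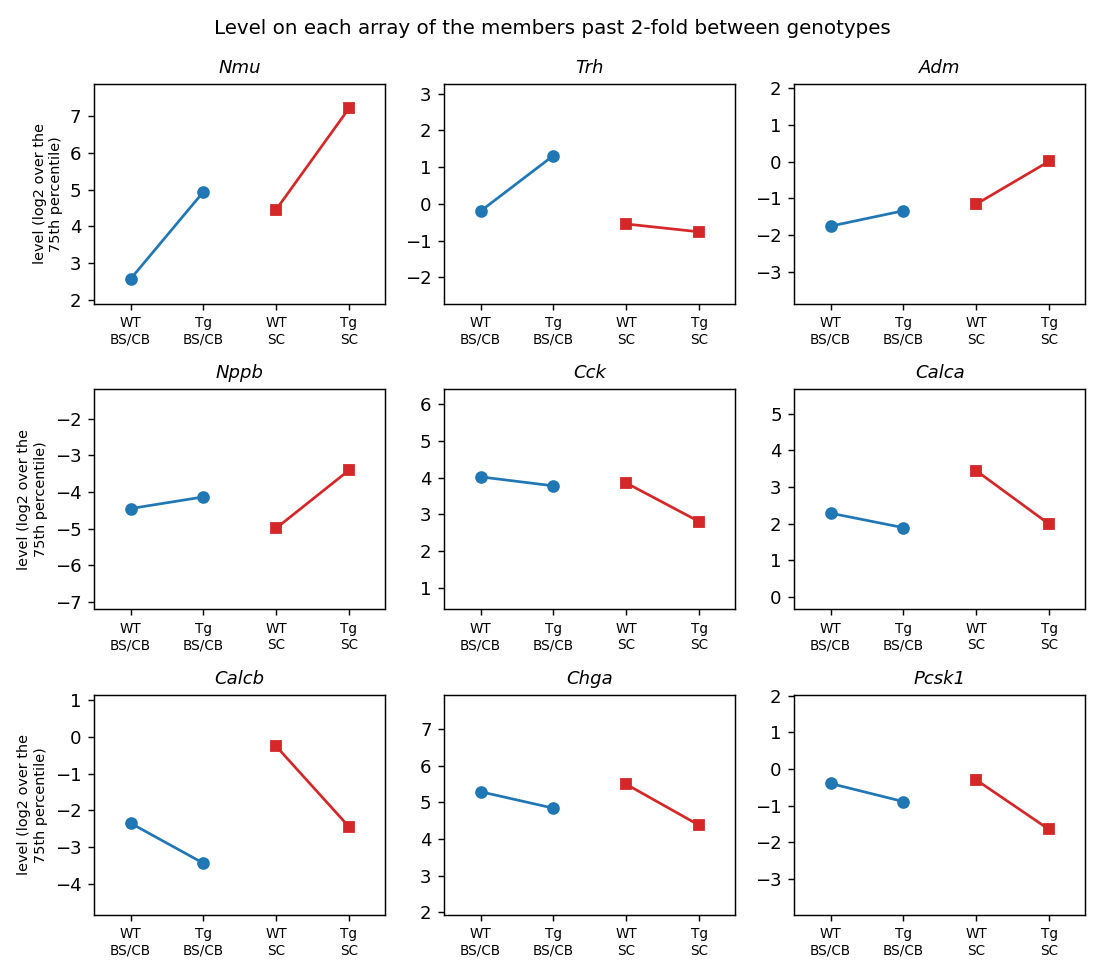
Level on each array (log2 over the 75th percentile of the array, y axis, each panel spanning 6 units) of the 9 members at least 2-fold apart between genotypes in at least 1 tissue, with circles for brainstem/cerebellum (BS/CB), squares for spinal cord (SC), WT for wild type and Tg for transgenic. Each point is 1 array, and Calca is shown by its CGRP probe. Nmu goes from 2.56 to 4.93 and from 4.45 to 7.21, while Calcb goes from -0.26 to -2.45 in spinal cord.

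The calcitonin family split by gene and by transcript. The variant 2 probe of Calca is annotated to the CGRP alpha form. It had levels of 2.28 and 1.89 in wild-type and transgenic brainstem/cerebellum and of 3.44 and 1.99 in spinal cord. The wild-type spinal cord array stood above the other 3. The differences were -0.40 and -1.45 (2.74-fold lower). Calcb, which encodes CGRP beta, had levels of -2.35 and -3.44 in brainstem/cerebellum and -0.26 and -2.45 in spinal cord. It was lower on the transgenic array in both tissues, by 2.13-fold and 4.58-fold, although with normexp background correction the brainstem/cerebellum difference was -0.60.

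The variant 1 probe of Calca, annotated to the calcitonin form, went the other way. It was not well above background on either wild-type array and stood at -2.93 in transgenic brainstem/cerebellum and at -1.35 in transgenic spinal cord. Against the dimmest signal called above background on the wild-type array of the same tissue, this is at least 4.92-fold and at least 21.2-fold higher. The mean of both Calca probes would give a spinal cord difference of 1.88, the opposite sign of the CGRP form, so the gene cannot be described by 1 value. The shared CGRP receptor genes Calcrl and Ramp1 differed by 0.14 and -0.48 in brainstem/cerebellum and by 0.05 and -0.40 in spinal cord. Calcr, the calcitonin receptor gene, differed by -0.35 in brainstem/cerebellum, and in spinal cord it was above background in wild type alone, with a bound of -1.05.

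Motor neurons and sensory neurons both make CGRP. The summed level of 6 motor neuron markers was 7.23 and 4.26 in wild-type and transgenic brainstem/cerebellum and 18.3 and 8.63 in spinal cord. Mnx1 was above background in wild-type spinal cord alone. Of the 5 measured in each tissue, Chodl had the lowest differences (-1.57 and -2.04) and Chat the highest (0.02 and -0.12). Of 10 dorsal root ganglion markers, 3 (Scn10a, Trpv1 and Mrgprd) were above background on none of the arrays, and the summed level was 3.80 and 4.35 in brainstem/cerebellum and 5.81 and 6.69 in spinal cord. The part of these markers in the CGRP results was not tested.

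**Figure D3:**
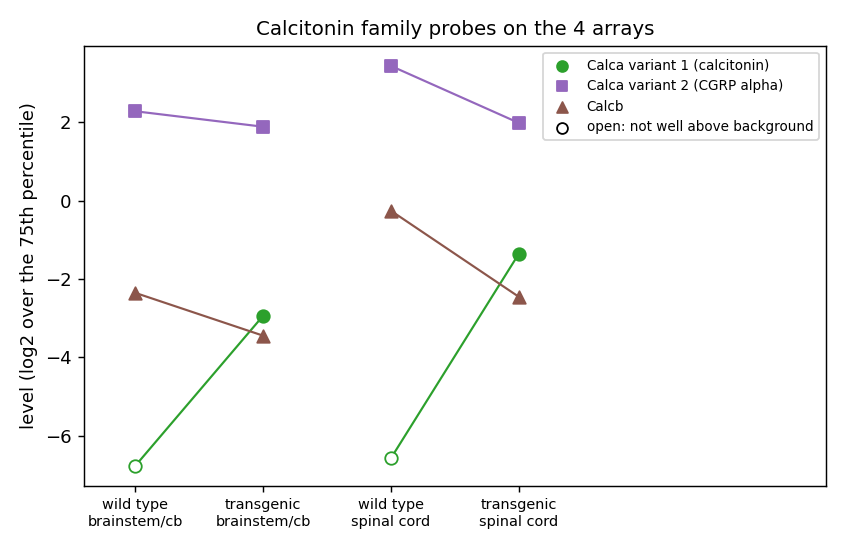
Level (log2 over the 75th percentile of the array, y axis) of the 2 Calca probes and the Calcb probe on the 4 arrays (x axis, with cb for cerebellum), where open symbols mark probes not well above background and heights of different probes are not comparable. The calcitonin probe is open on both wild-type arrays and filled on both transgenic ones (-2.93 and -1.35), while the CGRP alpha and Calcb probes are lower on the transgenic array of each tissue.

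Among the other peptides, Cck was the 1 member past 2-fold. Cck encodes cholecystokinin, a peptide of many brain neurons that opposes opioids in pain pathways. Its probe has 10 spots on each array, with an SD between spots of 0.06 to 0.08. The level was 4.02 and 3.77 in wild-type and transgenic brainstem/cerebellum and 3.85 and 2.80 in spinal cord. The highest of the 10 spots on the transgenic spinal cord array, at 2.93, lay below the lowest spot of any other array, at 3.63. Such repeated spots give a technical error only and do not replicate the sample. The spinal cord difference of -1.05 (2.07-fold lower) was past the threshold in 4 of 6 alternatives, which ranged from -1.51 to -0.96.

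Peptides of inhibitory and dorsal horn interneurons had smaller differences, mostly below 0. Sst, the gene of somatostatin, had levels of 4.65, 4.36, 5.25 and 4.73 (wild-type and transgenic brainstem/cerebellum, then wild-type and transgenic spinal cord, an order kept below), differing by -0.29 and -0.53. Tac1, which encodes substance P, stood at 2.63, 2.15, 3.05 and 2.59, with differences of -0.49 and -0.45. Pnoc, the gene of nociceptin, stood at 0.44, -0.15, 0.76 and 0.22, with differences of -0.59 and -0.55. These 3 genes were lower on the transgenic array of each tissue by 0.29 to 0.59. A second Tac1 probe gave -0.46 and -0.74. Of 2 more Tac1 probes, for another transcript, 1 was above background on the transgenic brainstem/cerebellum and wild-type spinal cord arrays alone (bounds of 0.86 and -3.03) and the other on none.

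The opioid precursors differed less. Penk, the gene of the enkephalins, stood at 5.16, 5.06, 4.88 and 4.59, with differences of -0.10 and -0.29. Its second probe gave 0.10 and -0.77. Pdyn, the gene of the dynorphins, stood at -0.20, 0.12, 1.44 and 1.47, with differences of 0.32 and 0.04. Pomc, the precursor of ACTH and beta-endorphin, stood at -0.82, -0.81, -0.96 and -0.91, so the 4 arrays lay within about the technical error of each other.

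Npy, which encodes neuropeptide Y, stood at 0.34, 0.35, 0.58 and 0.33. Gal, the gene of galanin, stood at 1.22, 1.33, 1.11 and 1.18, and Cartpt, whose CART peptide marks feeding and autonomic neurons, at 0.72, 0.69, 1.52 and 1.29. All 3 differed by less than 0.3 between genotypes in both tissues. Adcyap1, the gene of PACAP, differed by -0.31 in each tissue, Grp, the gene of the itch peptide gastrin-releasing peptide, by -0.36 and -0.44, and Nts, the gene of neurotensin, by -0.23 and -0.38. Crh, the gene of the stress hormone corticotropin-releasing hormone, stood at 0.41, 0.38, -0.60 and -1.32, level in brainstem/cerebellum and lower by 0.72 in transgenic spinal cord. Tac2, the gene of neurokinin B, differed by 0.06 and -0.40. Nmb, which encodes neuromedin B, stood at 0.68, 0.47, 0.05 and 0.25, differing by -0.22 and 0.19.

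The remaining peptide genes were dim. Vip, the gene of vasoactive intestinal peptide, had levels between -2.95 and -2.48. Hcrt, the gene of the orexins, had levels between -4.14 and -3.41 at its brighter probe and was below background at the other, while Oxt, the gene of oxytocin, lay between -4.52 and -3.88. Hcrt differed by -0.72 and -0.41. The 2 Oxt probes disagreed in brainstem/cerebellum, at 0.25 and -1.22. Ucn, which encodes the CRH relative urocortin, stood at -4.59, -5.11, -3.06 and -2.36, with differences of -0.52 and 0.70.

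All 6 granins were below 0 in brainstem/cerebellum, none by 2-fold (0.312% of all genes were at least 2-fold lower). Scg3 stood at only -0.05 there and at 0.02 with quantile normalization. In spinal cord 5 of 6 were below 0, 1 of them by 2-fold (6.42% of all genes were at least 2-fold lower). Scg3, at 0.12, was also below 0 with spike-in scaling (-0.33). The medians of the granins were -0.28 and -0.65, beside -0.07 and -0.05 over all genes, most of which thus lay below 0 too. Chga, the gene of chromogranin A, stood at 5.29, 4.84, 5.49 and 4.38, with differences of -0.45 and -1.11 (2.16-fold lower in spinal cord). With the percentile scaling it was the 1 granin past 2-fold. Its own spinal cord difference stayed past 2-fold under all 6 alternatives, from -1.57 to -1.01. Chgb, the gene of chromogranin B, read by up to 10 spots, stood at 6.36, 6.19, 5.62 and 4.81, with differences of -0.17 and -0.81. The SD between its spots was 0.05 to 0.08, and 7 of its 10 spots were used in wild-type brainstem/cerebellum, the rest being outliers.

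Scg5, whose product 7B2 is the chaperone of Pcsk2, stood at 5.51, 5.24, 5.27 and 4.33, with differences of -0.28 and -0.93. Scg2, the gene of secretogranin II, stood at 5.09, 4.79, 4.92 and 4.44, with differences of -0.29 and -0.48. Vgf, an activity-regulated granin precursor, stood at 4.0, 3.66, 4.46 and 4.28, with differences of -0.34 and -0.18. A second, dimmer Vgf probe gave 0.23 in spinal cord. Scg3, whose product tethers granule cargo to the membrane, stood at 5.06, 5.01, 4.65 and 4.77, the smallest differences of the 6 granins. Chga, Chgb and Scg5 had the lowest spinal cord differences of the 6.

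Among the processing genes, the convertase gene Pcsk1 was at least 2-fold lower in spinal cord (6.42% of all genes were). No other processing gene was past 2-fold in either tissue. Pcsk1, the gene of convertase 1/3, stood at -0.40, -0.89, -0.30 and -1.65, with differences of -0.49 and -1.35 (2.55-fold lower in spinal cord). The spinal cord difference stayed past 2-fold under all 6 alternatives, from -1.81 to -1.15. Pcsk2, the gene of convertase 2, stood at 3.28, 2.99, 2.81 and 1.99, with differences of -0.29 and -0.82. A second, dimmer Pcsk2 probe for another transcript gave 0.66 in brainstem/cerebellum. Pcsk1n, whose product proSAAS inhibits Pcsk1, stood at 6.26, 5.96, 5.86 and 5.75, with differences of -0.30 and -0.11. Cpe stood at 6.98, 6.95, 7.02 and 6.87, within 0.15 of each other, and the brightest Pam probe at -1.60, -1.60, -1.02 and -0.97. Cpe and the brightest Pam probe differed between genotypes by no more than 0.15 in either tissue. The other Pam probes with a value lay between -0.10 and 0.17 in brainstem/cerebellum and between -0.19 and 0.03 in spinal cord.

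Pan-neuronal markers moved beside the granins and convertases. Their 15 genes had a median difference of -0.22 in brainstem/cerebellum, with none past 2-fold. In spinal cord the median was -0.61, with 3 at least 2-fold lower (6.42% of all genes were) and none higher (8.46% were). The 3 were the neurofilament genes Nefl (-1.15), Nefm (-1.35) and Nefh (-1.41). Elavl3 alone was above 0 (0.14), and the rest lay between -0.865 (Syn1) and -0.21 (Stmn2). All 15 were above background on every array, and their summed level was 639.9 and 550.0 in wild-type and transgenic brainstem/cerebellum and 869.3 and 492.2 in spinal cord. The part of these markers in the results for granins and convertases was not tested. In the 6 activity-dependent genes the median difference was 0.53 and 1.11, with 4 above 0 and 2 (Arc and Npas4) below 0 in each tissue. In brainstem/cerebellum 1, Arc (-1.01), was at least 2-fold lower (0.312% of all genes were) and none higher (2.64% were). In spinal cord Fos (1.57), Junb (2.29) and Nr4a1 (1.32) were at least 2-fold higher (8.46% of all genes were). Arc (-1.325) was the 1 lower there (6.42% were).

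Other genes of the pathway were compared by the same rule. Of 48 genes of receptors and peptide-binding proteins, 41 were measured on both arrays in each tissue. Counting bounds too, 2 were higher in brainstem/cerebellum (3.62% of all genes were) and none lower (0.632% were), with a median of -0.26 over those measured. In spinal cord 1 was higher (9.85% of all genes were) and 5 lower (6.98% were), with a median of -0.54. The highest was C3ar1, which binds complement C3a and a Vgf-derived peptide and is a gene of myeloid cells, at 2.70 and 4.13. The opioid receptor gene Oprd1 was above background in transgenic (level -3.13) but not wild-type brainstem/cerebellum, at least 4.28-fold higher. It went the other way in spinal cord, dimly above background in wild type alone (level -5.095), with a bound of -0.19. In spinal cord the melanocortin receptor gene Mc3r had a bound of -3.76, being above background in wild type alone, Vipr2, a receptor of VIP and PACAP, stood at -1.58, and Ntsr2, the neurotensin receptor gene of astrocytes, at -1.04. In brainstem/cerebellum, the receptor genes Cckar and Npy5r came next, 1.99-fold and 1.94-fold lower.

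Of 27 further genes of granule transport and processing, none was 2-fold apart in brainstem/cerebellum, with a median of -0.22. Of all genes measured there, 2.64% were higher and 0.312% lower. In spinal cord 3 were lower (6.42% of all genes were) and none higher (8.46% were), with a median of -0.60. The 3 were the exocytosis calcium sensor gene Syt7 (-1.91), the vesicular monoamine transporter gene Slc18a2 (-1.52) and the granule protein gene Resp18 (-1.28). Sv2c, of a vesicle membrane protein, followed at -0.89. In brainstem/cerebellum the furthest were Rab27b (-0.54), Cyb561 (-0.52), Ptprn2 (-0.45) and Syt5 (-0.44). Among 12 peptide-degrading enzymes, Anpep, an aminopeptidase gene also known from myeloid cells, was higher in both tissues, at 1.46 and 3.65. Dpp4 and the neprilysin gene Mme were lower in spinal cord, at -1.41 and -1.19, while in brainstem/cerebellum Mme stood at 0.80 and Dpp4 at -0.53. Nln (0.80) in spinal cord and Ide (-0.40) in brainstem/cerebellum complete the 4 furthest of each tissue.

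The second comparison asks which members differ between the tissues, in each genotype. In wild type, 8 of 39 members were at least 2-fold higher in spinal cord (20.5%, against 6.56% of 16925 genes) and 1 was lower (2.56%, against 4.35%). In transgenic mice, within 1 slide, 6 were higher (15.4%, against 10% of 17072 genes) and 3 lower (7.69%, against 6.24%). The wild-type tissue comparison shares an array with each genotype comparison, as does the transgenic one. The higher genes included peptides known from dorsal horn and motor neurons.

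Tac2 was the 1 member at least 4-fold apart in both genotypes. Its level was -0.61 and -0.55 in wild-type and transgenic brainstem/cerebellum and 3.52 and 3.13 in spinal cord, so the tissues were 17.5-fold apart in wild type and 12.8-fold in transgenic mice. Both spinal cord arrays were far above both brainstem/cerebellum arrays. Nmu was 3.71-fold and 4.85-fold higher in spinal cord, Ucn 2.89-fold and 6.71-fold, and Pdyn, a peptide gene of dorsal horn neurons, 3.11-fold and 2.55-fold. Grp was 2.10-fold and 2.0-fold higher, and Nts 2.19-fold and 1.98-fold, on either side of the threshold.

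Calcb and the CGRP form of Calca were higher in spinal cord in wild type, by 4.27-fold and 2.23-fold, and by 1.99-fold and 1.07-fold in transgenic mice. The calcitonin probe of Calca was 2.99-fold higher in spinal cord of transgenic mice and not well above background in either tissue of wild type. Adm was 1.52-fold higher in wild-type and 2.54-fold higher in transgenic spinal cord. Crh was lower in spinal cord, by -1.01 in wild type and by -1.70 in transgenic mice. Trh differed by -0.35 in wild type and by -2.08 in transgenic mice, and Chgb by -0.74 and -1.38. Differences of these differences between genotypes have no replicate check.

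**Figure D4:**
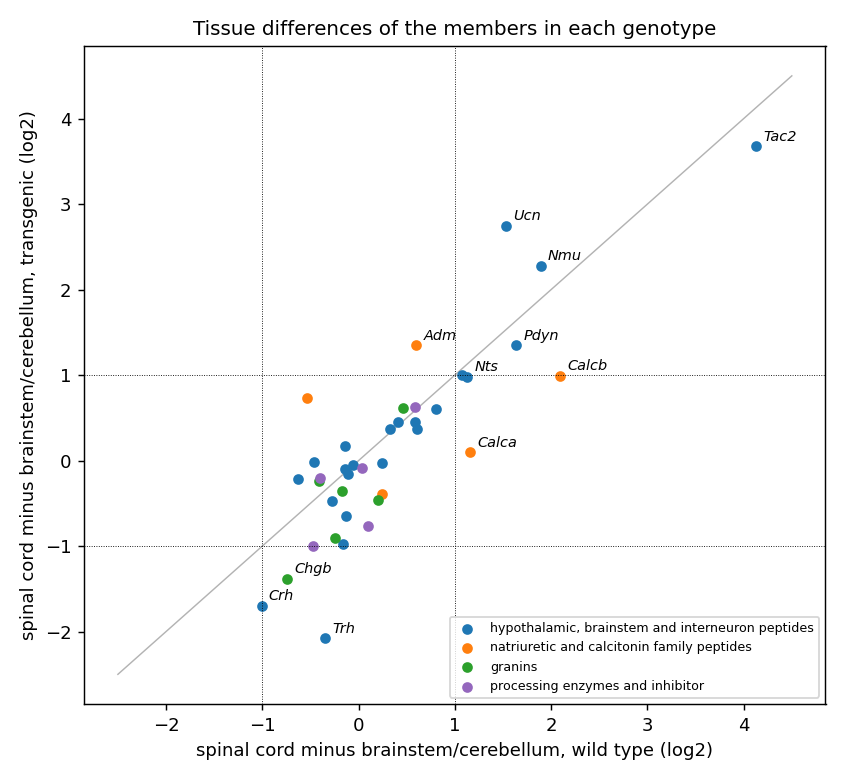
Spinal cord minus brainstem/cerebellum (log2) in wild type (x axis) and in transgenic mice (y axis) for the 39 measured members, coloured by role, with dotted lines at 2-fold and a grey line of equality. Tac2 lies furthest out (4.13 and 3.68), Calcb and Calca (the CGRP probe only) lie below the line, and Ucn and Adm above it.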

How the data were processed

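Total RNA was amplified, labelled with Cy3 and hybridised to 1 Agilent array for each of 4 samples, per the labels' protocols. Groups came from the sample titles. The deposited scanner files hold spot intensities, background-subtracted and detrended within each array by Agilent Feature Extraction (version 10.7.1.1 per the file headers, 9.5.1.1 per the submitters' processing notes). The deposited series table holds intensities with the same quantiles in all columns and served as an alternative, its making by the authors not given in the sources used here.

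Levels were computed in Python 3.11.15 as log2 of the processed signal over the array's 75th percentile. Control spots and outlier-flagged spots were left out, spots of a probe were averaged, and a gene was read from its brightest probe on average (10 members have several). Where 1 of the arrays compared was not well above background, a bound was taken: the bright level less the dim one, or less the lowest level called well above background on the dim array where that was higher. Levels of different probes were not compared, but the summed marker levels add up different probes, so that brighter probes weigh more in them. Normexp used limma 3.58.1 with an offset of 50. Counting was tested on simulated data.

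All 40 members were accounted for. Levels per array are given for members past 2-fold between genotypes or 4-fold between tissues in both, for granins and processing genes, and for some others. Up to 4 genes per companion list and tissue are named, and some receptors of named peptides were added after their values were seen. The members and lists were chosen with earlier results of these data known. Alternatives were median, quantile and spike-in scaling, normexp, the authors' values, the mean over probes, only members above background on all 4 arrays, and thresholds of 1.5-fold and 3-fold.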

Additional observations from a re-analysis of the deposited data

Results flagged for a closer look

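Nmb and Ucn differed in opposite directions in the 2 tissues, each by more than 2 technical SDs at its mean level over the 4 arrays (0.10 and 0.19). At the dimmer levels of Ucn in brainstem/cerebellum the SD was 0.29, and its difference there was within 2 of these. Nmb stood at -0.22 in brainstem/cerebellum and at 0.19 in spinal cord, and Ucn at -0.52 and 0.70, transgenic minus wild type. With spike-in scaling Nmb was below 0 in spinal cord too (-0.27), and Ucn stood at 0.24. Neither difference between tissues was tested, since each rests on 1 array per group.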

How the results depend on the processing

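No paired analysis was possible because each group is 1 array and no result comes from a test; for the same reason no array could be left out. Of 100 recomputed counts and medians, 72 stayed within 1.5 times the count or within the technical SD of 0.10, and of 936 recomputed differences of single members 629 stayed within theirs. Of these, 1 past 2-fold changed sign: Calca in spinal cord, at 1.88 with the mean over probes, which averages its 2 probes. In brainstem/cerebellum (2 higher, 1 lower, median -0.17), 3-fold gave 1 and 0, 1.5-fold gave 3 lower, normexp 0 lower, and median scaling a median of -0.34, with 75.9% of all calls higher in place of 89.4%. In spinal cord (3 higher, 5 lower, median -0.30), normexp gave 1 higher, 3-fold 1 higher and 1 lower, 1.5-fold 10 lower, and spike-in scaling 11 lower and a median of -0.76. Between tissues in wild type (8 higher, 1 lower, median 0.10), 3-fold gave 4 higher and 0 lower, 1.5-fold 3 lower, the mean over probes 2 lower and a median of 0.20, spike-in scaling 0 lower and a median of 0.29, median scaling a median of -0.011, and quantile normalization, normexp and the authors' values 0 lower each. Between tissues in transgenic mice (6 higher, 3 lower, median -0.03), spike-in scaling gave 3 higher, 8 lower and a median of -0.38, 1.5-fold 12 higher and 8 lower, and 3-fold 3 higher. The causes were not tested. For dim genes such as Nppb, Ucn, Oxt and Hcrt, signal near background limits the precision.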
